A study of Mus musculus with 12 samples.

Results

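Immune, interferon and antigen presentation genes of the mouse kidney cortex were followed on arrays that set menopausal against control cortex. They were chosen by symbol: genes whose annotated symbol begins with the prefixes of the major histocompatibility complex (H2-), CD antigens, interferons and interferon-inducible genes, interferon regulatory factors, STATs, interleukins, chemokines, TNF family members, complement C1q, Fc receptors, Ly antigens, lysozyme and Toll-like receptors, with C3 and B2m added and Cd44 left out. The rule used no measured value and found 72 genes of the 6786 that the array's annotation names, measured by 79 of the 9191 probes with 1 symbol. A probe annotated to several genes was left out.

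The menopausal group comprised 3 cortex samples whose labels carry the treatment VCD and the disease state menopausal, and the control group 3 cortex samples labelled control for both. VCD is commonly the abbreviation of vinylcyclohexene diepoxide, an agent used to deplete ovarian follicles in mice. No source used here gives strain, sex, age, dose or the number of mice behind a cortex sample. The p-values therefore cover only how these samples vary. Each sample was hybridised on 4 of 12 arrays in 2 colours, 2 arrays per dye, and 6 arrays paired a menopausal with a control sample.

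Each value is a log2 level set against the average of the 6 cortex samples. A difference is the menopausal minus the control mean, given ± its standard error from limma's moderated test (n = 3 per group). A probe was kept when it exceeded its local background in at least 6 of the 12 measurements of either group, which 7683 of 15600 probes did. Between 16.5% and 76.8% of spots in a channel exceeded background, and the scanner tables mark 24 to 418 spots of an array as abnormal. Gene names rest on a probe layout found from the data: different probes of a gene correlated in brightness at r = 0.444 with it, across 3477 pairs, and at 0.044 in table order. The groups were taken from the labels of the scanner tables. The 12 columns of the deposited value table, which was not used for any result, each matched an array other than the one of their label.

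Antigen presentation runs along 2 routes. Class I molecules, which need beta-2 microglobulin, show peptides from inside nearly every cell to CD8 T cells, while class II molecules show ingested material to CD4 T cells and are made mainly by macrophages, dendritic cells and B cells. Interferons bind surface receptors, whose signal runs through STAT proteins and interferon regulatory factors to short promoter sequences and raises both routes. In kidney cortex most RNA comes from tubule cells, and resident macrophages and dendritic cells lie between the tubules. Because these are bulk samples, fewer cells of a type and less RNA per cell cannot be told apart.

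The promoters of 5 kept genes are shown because they carry the short sequences through which interferon and class II signals are known to reach such genes. They are the RefSeq windows on GRCm38.p6, from 250 bases before to 50 bases after the gene start, read 5′ to 3′ on the gene's strand. They lie at chr17:34305617-34305916 on the plus strand for H2-Eb1, at chr2:122147437-122147736 on the plus strand for B2m and at chr11:53769764-53770063 on the plus strand for Irf1, 1 of 2 Irf1 windows in the table. That of Fcgr1 lies at chr3:96293920-96294219 and that of Ifitm3 at chr7:141010695-141010994, both on the minus strand. Capitals mark the Y box ATTGG, read on either strand, in H2-Eb1, the core GAAANNGAA of the interferon-stimulated response element in B2m and Ifitm3, and the gamma-activated site TTCNNNGAA in Irf1 and Fcgr1.
H2-Eb1: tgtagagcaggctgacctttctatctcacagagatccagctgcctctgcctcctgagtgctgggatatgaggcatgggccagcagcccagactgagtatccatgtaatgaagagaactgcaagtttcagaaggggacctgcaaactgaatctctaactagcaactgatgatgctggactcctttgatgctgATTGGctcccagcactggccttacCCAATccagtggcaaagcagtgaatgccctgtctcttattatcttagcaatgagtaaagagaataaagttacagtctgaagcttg
B2m: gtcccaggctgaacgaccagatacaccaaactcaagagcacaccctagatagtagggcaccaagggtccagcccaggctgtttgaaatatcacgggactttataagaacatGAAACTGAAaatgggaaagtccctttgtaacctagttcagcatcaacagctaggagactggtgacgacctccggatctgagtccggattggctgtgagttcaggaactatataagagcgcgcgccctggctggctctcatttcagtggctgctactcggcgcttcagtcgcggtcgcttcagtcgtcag
Irf1: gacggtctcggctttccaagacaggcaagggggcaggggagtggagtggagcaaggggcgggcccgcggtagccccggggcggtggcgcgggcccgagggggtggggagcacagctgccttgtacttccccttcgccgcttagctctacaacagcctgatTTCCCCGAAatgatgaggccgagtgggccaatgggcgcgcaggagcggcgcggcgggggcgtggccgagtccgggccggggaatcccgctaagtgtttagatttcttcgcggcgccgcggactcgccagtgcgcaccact
Fcgr1: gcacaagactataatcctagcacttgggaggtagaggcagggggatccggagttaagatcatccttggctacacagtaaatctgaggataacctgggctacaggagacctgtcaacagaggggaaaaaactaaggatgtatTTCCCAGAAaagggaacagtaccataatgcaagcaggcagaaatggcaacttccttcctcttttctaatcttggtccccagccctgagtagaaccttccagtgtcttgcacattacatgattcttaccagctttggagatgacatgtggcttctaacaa
Ifitm3: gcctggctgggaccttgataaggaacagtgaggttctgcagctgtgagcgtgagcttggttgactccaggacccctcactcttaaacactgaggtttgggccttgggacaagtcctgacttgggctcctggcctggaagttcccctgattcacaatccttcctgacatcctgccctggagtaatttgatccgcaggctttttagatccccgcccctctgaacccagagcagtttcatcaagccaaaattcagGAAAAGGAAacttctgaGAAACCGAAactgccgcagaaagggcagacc
Of 32851 promoters of the same length searched on both strands, 8.30% held TTCNNNGAA, 8.56% held GAAANNGAA and 37.4% held ATTGG. Of the 36 kept genes with a promoter in the table, 5 held TTCNNNGAA (Cd82, Fcgr1, Ifitm3, Ifnar1 and Irf1), 5 held GAAANNGAA (B2m, Cd9, Ifitm2, Ifitm3 and Tnfsf8) and 12 held ATTGG. A gene counted when any of its promoters matched, while the percentages are of single promoters, so the measures differ. In Ifitm3 a TTCNNNGAA match overlaps a GAAANNGAA match. A match is a run of letters in this window, not a binding site shown here. The 9 genes with either interferon sequence had differences from -0.241 to 0.18, with 3 higher and 6 lower in menopausal samples. Their median was -0.116, against -0.0072 over all 44 immune probes kept and 0.0012 over all probes. They were not tested as a group. With median centring, an alternative normalization, B2m and Irf1 turned positive, at 0.077 and 0.0061, and Ifnar1 negative, at -0.067.

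No immune gene passed the test between menopausal and control cortex. Of the 44 probes kept, for 39 genes, limma called 0 at an adjusted p of 0.05, as it did of all 7683 probes (0%), and the smallest adjusted p was 0.923. At an unadjusted p under 0.05 there was 1 immune probe, H2-Eb1, of 44, against 4.88% of all probes. Differences were positive for 19 probes and negative for 25, with a median of -0.0072, and the median over all probes was 0.0012. The groups did not overlap at 1 immune probe with menopausal above (a Stat3 probe), against 6.17% of all probes. That probe passed the filter through the menopausal group alone, the group where it is higher. With menopausal below there was also 1 (Cd9), against 5.86% of all probes. The 95% interval of the difference lay within 1 log2 unit of 0 for 43 of the 44 probes and within 0.5 for 36. With 1 of the 6 samples left out in turn, 32 of the 44 differences changed sign and 12 did not.

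**Figure D1:**
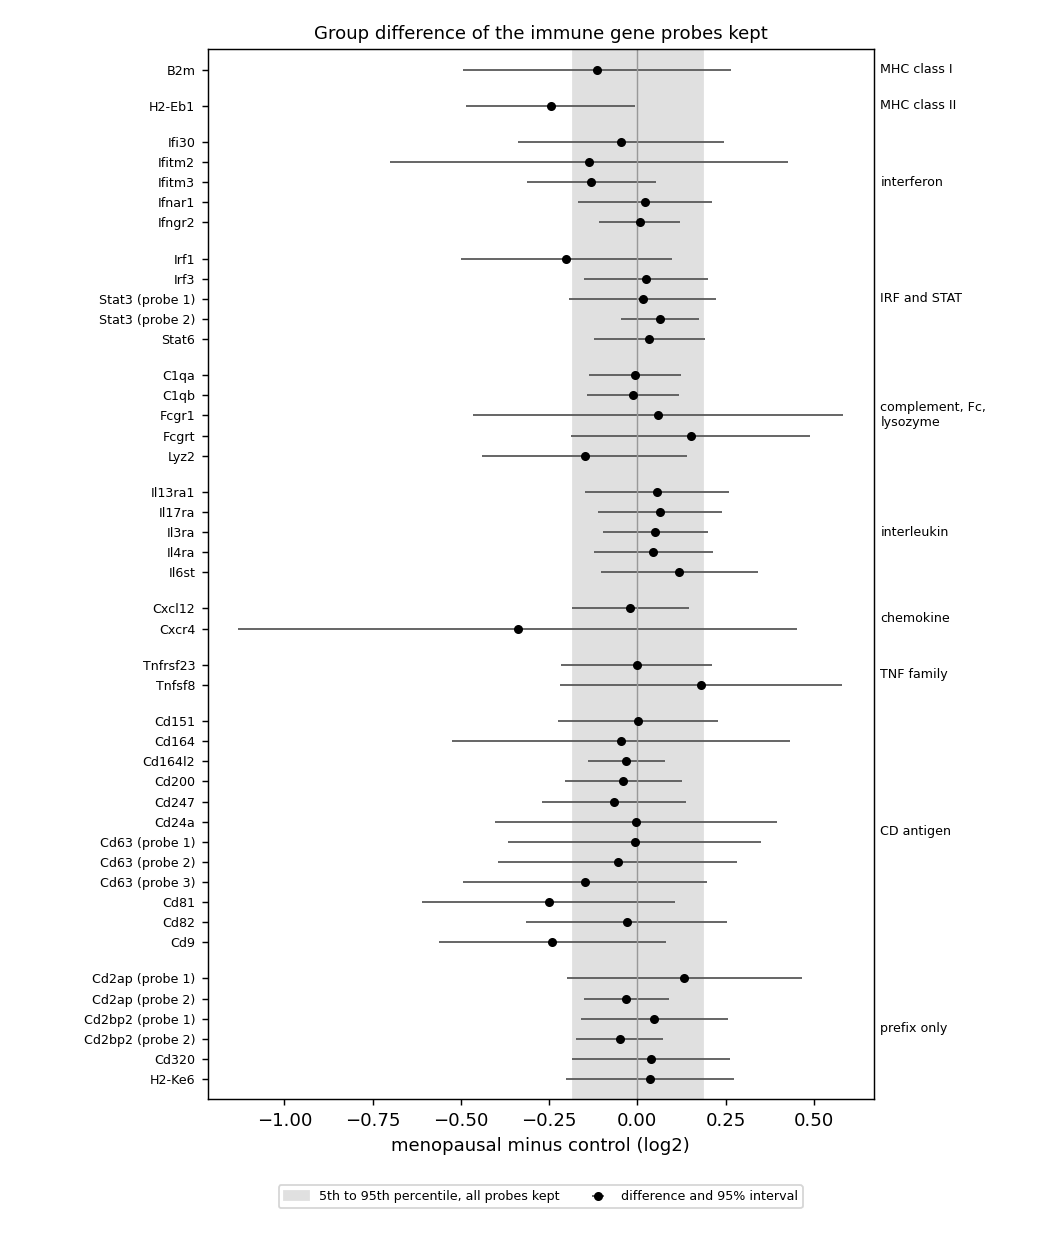
Difference between menopausal and control cortex (x axis, log2, menopausal minus control) for each of the 44 immune gene probes kept, grouped by role. Points are differences, bars 95% intervals from limma (n = 3 per group), and the grey band spans the 5th to 95th percentile of all 7683 probes, -0.183 to 0.186. Every interval crosses 0 except that of H2-Eb1, and that of Cxcr4 is the widest.

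H2-Eb1, the beta chain of the class II molecule I-E and the only class II gene kept, was at -0.18, -0.22 and 0.034 in Menopausal 1, 2 and 3, against 0.15, 0.22 and -0.0023 in Control 1, 2 and 3. Menopausal 1 and 2 lay below every control sample, and Menopausal 3 and Control 3 crossed. The difference was -0.25 ± 0.11, with a 95% interval from -0.49 to -0.0054 (limma adjusted p = 0.923), and the probe exceeded background in all 24 measurements. On the 6 arrays that paired the groups, the log2 ratio of menopausal to control was negative on 4, from -0.48 to -0.30. It was 0.025 for Menopausal 3 against Control 1 and 0.085 for Menopausal 2 against Control 3. Other arrays with Menopausal 3 or Control 3 were negative, at -0.42 for Menopausal 3 against Control 2 and -0.38 for Menopausal 1 against Control 3. The difference was negative under each of the 10 alternative settings that could move it, from -0.34 without Control 3 to -0.15 without background subtraction. H2-DMa, which loads peptides onto class II molecules, exceeded background in 0 of 12 menopausal and 1 of 12 control measurements and was not kept.

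B2m, the light chain of class I molecules and the only class I gene on the array under the rule, was at -0.21, 0.13 and -0.096 in the menopausal samples, against 0.26, -0.17 and 0.085 in the control samples. Control 1 was highest and Menopausal 1 lowest, and the groups overlapped widely. Its difference was -0.12 ± 0.17, with a 95% interval from -0.50 to 0.26. It was -0.261 without Control 2 and -0.0123 without Control 3, and the sign turned with median centring, at 0.077.

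Antigen processing genes cut, carry and load peptides, and all those listed here except Ifi30 lie outside the symbol rule. The list of 19 gave 11 kept probes for 9 genes, Ifi30 among them. Of these probes 4 were higher and 7 lower, and 0 were called by limma. Groups were apart with menopausal below at 2, against 5.86% of all probes. At an unadjusted limma p under 0.05 there was 1, against 4.88% of all probes. That probe measured Lgmn, a lysosomal endopeptidase of the class II route. It was at -0.17, -0.16 and -0.14 in menopausal samples, against 0.10, 0.38 and 0.00074 in control samples, a difference of -0.32 ± 0.13 (limma adjusted p = 0.923) with groups that did not overlap, and it was -0.023 without Control 2. Tap2, a subunit of the transporter that brings peptides to class I molecules, also had groups apart, at -0.076, -0.052 and -0.043 in menopausal against 0.076, 0.12 and -0.027 in control samples, but its difference turned positive with global loess, at 0.020. Ifi30, the thiol reductase that unfolds antigens in lysosomes, is a member of both lists and was at 0.096, -0.22 and 0.055 in menopausal, against -0.15, 0.25 and -0.037 in control samples.

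**Figure D2:**
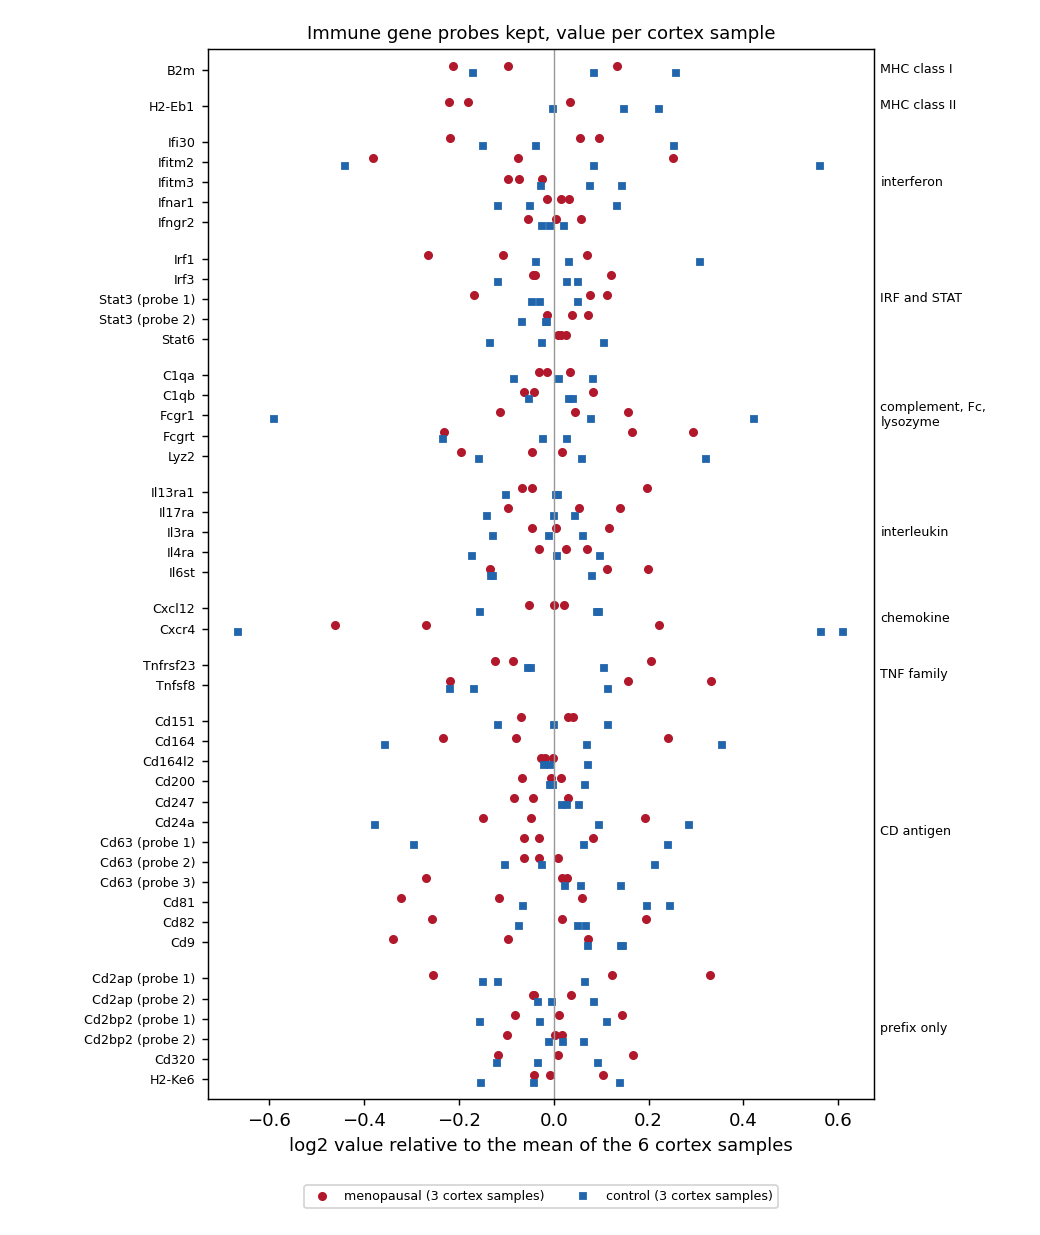
Log2 value of each cortex sample, with the average of the 6 at 0 (x axis), for the 44 immune gene probes kept, grouped by role. Red circles are the 3 menopausal and blue squares the 3 control samples, and each row is a probe. Red and blue points overlap in every row except the second Stat3 probe and Cd9, and Cxcr4, Fcgr1 and Ifitm2 spread widest.

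Of the interferon receptors, Ifnar1, a chain of the type I receptor, differed by 0.022 ± 0.083 and Ifngr2, a chain of the interferon gamma receptor, by 0.0069 ± 0.050. Ifngr2 passed the filter through the menopausal group alone, with 9 of 12 measurements above background, against 5 of 12 in control. Both receptor genes lay within 0.135 of the mean in every sample. Ifnar1 changed sign under several settings given in the closing section.

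The antiviral membrane proteins of the Ifitm family are induced by interferon. Ifitm3 was at -0.097, -0.026 and -0.073 in menopausal samples, against 0.077, 0.14 and -0.026 in control samples, with a difference of -0.13 ± 0.080 (95% interval from -0.31 to 0.053). All 3 menopausal values were negative, and Control 3 nearly equalled Menopausal 2. Ifitm2 was at 0.25, -0.38 and -0.076 in menopausal samples, against -0.44, 0.56 and 0.085 in control samples, a difference of -0.14 ± 0.25. It was -0.362 without Menopausal 1, -0.0050 without Menopausal 2 and 0.0607 without Control 2. The control samples enclosed all menopausal ones, with Control 1 lowest and Control 2 highest.

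Interferon-stimulated genes outside the symbol rule gave 6 kept probes for 5 genes of a list of 35, of which 1 was higher and 5 lower in menopausal samples. Limma called 0, and 1 had an unadjusted p under 0.05, against 4.88% of all probes. It measured Bst2, or tetherin, which holds budding virus at the cell surface, at -0.037, -0.14 and -0.21 in menopausal samples, against -0.079, 0.33 and 0.13 in control samples. The difference was -0.26 ± 0.10 (limma adjusted p = 0.923), and -0.0097 without Control 2. Tgtp1, an interferon-induced GTPase, was the 1 higher, at 0.13 ± 0.073, which was -0.040 without Menopausal 3. Its groups were apart with menopausal above, at 1 probe of the list, against 6.17% of all probes. Tgtp1 passed the filter through the menopausal group alone, with 9 of 12 measurements above background, against 5 of 12 in control. Of the lower probes, both of Samhd1 and that of Igtp turned positive with 1 sample left out, at up to 0.017, 0.0080 and 0.054. Those of Bst2 and Ddx58 stayed negative. The list median was -0.094, against -0.046 for the 5 interferon probes of the symbol rule and 0.0012 over all probes.

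Irf1, a transcription factor that interferon gamma induces, was at -0.11, 0.070 and -0.26 in menopausal samples, against 0.31, -0.038 and 0.031 in control samples. Control 1 was highest and Menopausal 3 lowest, while Menopausal 2 exceeded 2 control samples. The difference was -0.20 ± 0.13, with a 95% interval from -0.50 to 0.098 (limma adjusted p = 0.923). It was -0.343 without Menopausal 2, -0.0651 without Menopausal 3 and -0.0267 without Control 1. Irf3, which switches on type I interferon genes after viral sensing, differed by 0.025 ± 0.077.

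Stat3, which carries signals of the interleukin-6 family, had 2 probes. The first was at 0.077, 0.11 and -0.17 in menopausal samples, against -0.046, 0.051 and -0.028 in control samples, a difference of 0.015 ± 0.091. The second was at 0.039, -0.014 and 0.073 in menopausal samples, against -0.016, -0.067 and -0.014 in control samples. Its groups were apart only by the narrow gap between Menopausal 2 at -0.0137 and Control 3 at -0.0144. Its difference was 0.065 ± 0.049. It exceeded background in 6 of 12 menopausal and 5 of 12 control measurements, so it passed the filter through the menopausal group alone. The 2 probes thus placed Menopausal 3 at opposite ends. Stat6, the interleukin-4 signal carrier, differed by 0.034 ± 0.069. Irf8, Irf9 and Stat2 were not kept, with at most 5 of 12 measurements above background in a group.

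Among 10 kept probes of JAK and NF-kB signalling genes outside the rule, for 8 genes of a list of 29, 5 were higher and 5 lower in menopausal samples, and limma called 0, with 0 at an unadjusted p under 0.05. Jak1, a kinase of interferon receptors, had 2 probes of opposite sign, at 0.18 ± 0.11 and -0.14 ± 0.086. Socs3, a feedback inhibitor of STAT3 signals, was at -0.0078, 0.019 and -0.12 in menopausal samples, against 0.035, 0.045 and 0.033 in control samples, with groups apart at a difference of -0.075 ± 0.051 that turned to 0.0014 without Menopausal 3 and to 0.0077 without background subtraction. Irak1, a kinase of the Toll-like receptor route, was also apart, at -0.100 ± 0.074, and Myd88, the adaptor of most Toll-like receptors, was apart the other way, at 0.068 ± 0.043. In this list groups were thus apart with menopausal above at 1 probe, against 6.17% of all probes, and below at 2, against 5.86%. Irak1 ran from -0.126 to -0.0695 and Myd88 from 0.0145 to 0.12 with 1 sample left out. Myd88 passed the filter through the menopausal group alone, with 6 of 12 measurements above background, against 4 of 12 in control. Nfkbia, the NF-kB inhibitor, differed by 0.083 ± 0.11. Of 12 inflammatory response genes listed, Hmox1, the haem oxygenase gene, was the only one kept, at 0.035 ± 0.092.

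All 5 kept interleukin receptor probes had positive differences, between 0.045 and 0.119, and every 95% interval crossed 0. Without background subtraction 2 were positive and 3 negative, as they were without Menopausal 2. Il6st, the gp130 chain shared by interleukin-6 family receptors, had the largest, at -0.13, 0.20 and 0.11 in menopausal samples, against 0.082, -0.13 and -0.13 in control samples. Menopausal 1 lay just below the control minimum and the other menopausal samples lay above all control samples. The difference was 0.12 ± 0.097, and -0.0093 without Menopausal 2. A second Il6st probe exceeded background in none of 24 measurements. Il17ra and Il4ra, chains of the receptors for interleukins 17 and 4, differed by 0.064 ± 0.077 and 0.045 ± 0.074, and both were kept through the menopausal group alone. Il13ra1 and Il3ra differed by 0.057 ± 0.089 and 0.051 ± 0.065. No interleukin itself was kept: Il18, the best detected, exceeded background in 4 of 12 menopausal and 5 of 12 control measurements.

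Cxcr4, the receptor of the chemokine CXCL12 that steers leukocytes and stem cells, varied most of all immune genes, with a range of 1.28 over the 6 samples that exceeded those of 99.1% of all probes. It was at -0.46, 0.22 and -0.27 in menopausal samples, against 0.56, -0.67 and 0.61 in control samples. Control 1 and 3 stood above every menopausal sample and Control 2 below all of them. The difference, -0.34 ± 0.35, had a 95% interval from -1.13 to 0.45 (limma adjusted p = 0.947), and was -0.70 without Control 2 and -0.084 without Control 3. On the 6 arrays that paired the groups the ratio was negative on 5 and 0.45 on the array of Menopausal 3 and Control 2. Its ligand gene Cxcl12 differed by -0.020 ± 0.073. Cxcl12 exceeded background in 6 of 12 menopausal and 5 of 12 control measurements, so it was kept through the menopausal group alone.

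The TNF family kept 2 of 7 probes. Tnfsf8, the CD30 ligand, was at 0.33, -0.22 and 0.16 in menopausal samples, against -0.17, 0.12 and -0.22 in control samples, the largest positive difference of any immune probe at 0.18 ± 0.17, which was 0.012 without Menopausal 1. Menopausal 2 shared the lowest value with Control 3. Tnfrsf23, a decoy receptor of TRAIL, differed by -0.0018 ± 0.094.

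Macrophage genes were measured by 4 probes of a list of 15 markers, and all 4 are members. C1qa and C1qb, chains of the first complement component that tissue macrophages make, differed by -0.0074 ± 0.057 and -0.013 ± 0.057, with every sample within 0.0832 of the mean. They exceeded background in 6 and 7 of 12 menopausal measurements, against 3 of 12 in control for each, so both were kept through the menopausal group alone. Lyz2, the macrophage lysozyme, was at -0.047, -0.19 and 0.018 in menopausal samples, against 0.32, 0.059 and -0.16 in control samples, a difference of -0.15 ± 0.13 (95% interval from -0.44 to 0.14), which was -0.0359 without Control 1 and -0.273 without Control 3. Control 1 was highest and Menopausal 2 lowest.

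Fc receptors bind the constant part of antibodies. Fcgr1, the high-affinity IgG receptor of macrophages, was at -0.11, 0.16 and 0.045 in menopausal samples, against 0.42, -0.59 and 0.080 in control samples, and its difference was 0.059 ± 0.23. It was 0.276 without Control 1, but -0.277 without Control 2 and -0.0834 without Menopausal 3. All menopausal values lay between Control 2 and Control 1. Fcgrt, the neonatal Fc receptor that recycles IgG and albumin, was at -0.23, 0.17 and 0.29 in menopausal samples, against -0.23, -0.022 and 0.028 in control samples, a difference of 0.15 ± 0.15. Menopausal 2 and 3 exceeded all control samples and Menopausal 1 nearly equalled the control minimum. Fcgr3 and Fcer1g were not kept.

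Of 12 kept probes of CD surface antigens, for 10 genes, 11 had negative differences and 1 positive, Cd151 at 0.0020 ± 0.099. With median centring 8 were positive and 4 negative, and with global loess 5 and 7. Most of these genes are not specific to leukocytes. Cd9, a tetraspanin of many epithelia, was at -0.096, 0.0727 and -0.34 in menopausal samples, against 0.15, 0.0729 and 0.14 in control samples. Its groups were apart only by the narrow gap between Menopausal 2 and Control 2. The difference was -0.24 ± 0.14 (95% interval from -0.56 to 0.081, limma adjusted p = 0.923). Cd81, a related tetraspanin, was at -0.12, 0.060 and -0.32 in menopausal samples, against -0.064, 0.25 and 0.20 in control samples, a difference of -0.25 ± 0.16. Without Menopausal 3 Cd9 was at -0.081 and Cd81 at -0.0838, and Cd81 was at -0.44 without Control 1 and -0.045 without Control 2.

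Both tetraspanins were lowest in Menopausal 3. Cd63, a tetraspanin of lysosomes and exosomes, had 3 probes at -0.0070, -0.056 and -0.15, with standard errors of 0.16, 0.15 and 0.15. The first ran from -0.30 in Control 1 to 0.24 in Control 2. Cd164, a sialomucin, was at -0.23, 0.24 and -0.079 in menopausal samples, against 0.35, -0.35 and 0.071 in control samples. Cd24a, an anchored mucin-like protein of epithelia and B cells, was at -0.15, 0.19 and -0.049 in menopausal samples, against 0.096, -0.38 and 0.29 in control samples. In both genes the control samples enclosed all menopausal ones.

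Genes that match the prefixes without belonging to an immune role were described apart. Cd2ap, a scaffold of the podocyte slit diaphragm, had 1 probe at -0.25, 0.12 and 0.33 in menopausal samples, against 0.067, -0.15 and -0.12 in control samples, a difference of 0.13 ± 0.15, and another at -0.031 ± 0.053. The 2 probes of Cd2bp2, a splicing protein, differed by 0.048 ± 0.092 and -0.050 ± 0.054, also of opposite sign. H2-Ke6, a steroid dehydrogenase gene of the complex region, differed by 0.036 ± 0.10 and Cd320, the transcobalamin receptor, by 0.039 ± 0.098.

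Whether immune genes differed among samples of a group was tested against the spread of repeated arrays of 1 RNA. Limma's moderated F test called 0 of the 44 probes among menopausal samples, against 0.377% of all probes, 0 among control samples, against 1.08%, and 0 among all 6 samples, against 1.18%. At an unadjusted p under 0.05 there were 5, 8 and 8 of the 44, against 13.1%, 13.7% and 13.9% of all probes. The smallest adjusted p was 0.149 among menopausal samples (Cd2ap), 0.105 among control samples (Cd24a) and 0.216 among the 6 (Cd2ap). For Cxcr4 the adjusted p was 0.482 among menopausal and 0.127 among control samples, and arrays of 1 RNA left a residual SD of 0.63 for it, against a median of 0.182 over the 44 probes. Without Menopausal 2 both Cxcr4 and Ifitm2 were called among control samples (limma adjusted p = 0.0349 and 0.0235), where 1.29% of all probes were. The median range over the 6 samples was 0.297 for the 44 probes and 0.302 for all probes.

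Some members shared signs across the samples, in patterns picked after the values were seen. How many of all probes had the same signs was not counted, so the patterns are not shown to be particular to immune genes. Of the 44 probes 7, those of Cxcr4, Fcgr1, Cd164, Cd24a, B2m, Irf1 and Il4ra, were negative in Menopausal 1 and Control 2 and positive in Menopausal 2, Control 1 and Control 3. Other members of wide range, among them Cd2ap, Cd81, Fcgrt and Lyz2, did not have these signs. Proximal tubule markers (4 probes of Gatm, Lrp2 and Miox) had medians of -0.16, 0.22 and -0.029 in menopausal samples and 0.16, -0.14 and 0.040 in control samples, with the same signs in those 5 samples. The medians followed Gatm and Lrp2, while Miox was at 0.031 in Menopausal 1, 0.0079 in Control 2 and -0.18 in Control 3. The distal nephron marker Calb1, a calcium-binding protein with 4 probes, had medians of -0.22, 0.016 and -0.13 in menopausal samples and 0.21, -0.041 and 0.18 in control samples, also with those signs. Its 4 differences ran from -0.42 to 0.017 with a median of -0.20, and limma called 0. Of them 1 had an unadjusted p under 0.05 and groups apart with menopausal below, against 4.88% and 5.86% of all probes. That probe was at -0.080 in Menopausal 2 and 0.0054 in Control 2. Another was at -0.030 in Control 1 and 0.105 in Control 2, so the signs of the medians did not hold for every probe. Erythrocyte markers (3 probes of Hbb-b1 and Alas2) had medians of 0.56, 0.044 and -0.48 in menopausal samples. In control samples they were -0.17, -0.61 and 0.73, in another order. The Hbb-b1 probes were called among the 6 samples (limma moderated F, adjusted p = 0.014 and 0.0017), as were 1.18% of all probes. Alas2 was not called (limma moderated F, adjusted p = 0.30), and was at -0.15 and -0.060 in Control 1 and 2. Another 12 probes, among them those of Ifitm2, Ifi30, Tnfsf8 and Cd320, were positive in Menopausal 1 and Control 2 and negative in Control 1. The part of tubule content or blood in these values was not tested. Control 2 also had the fewest immune measurements above background, 38.0%, against 45.3% in Menopausal 1 and 52.2% to 58.2% in the others. The share over all probes was not counted per sample, so this is not shown to be particular to immune genes.

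**Figure D3:**
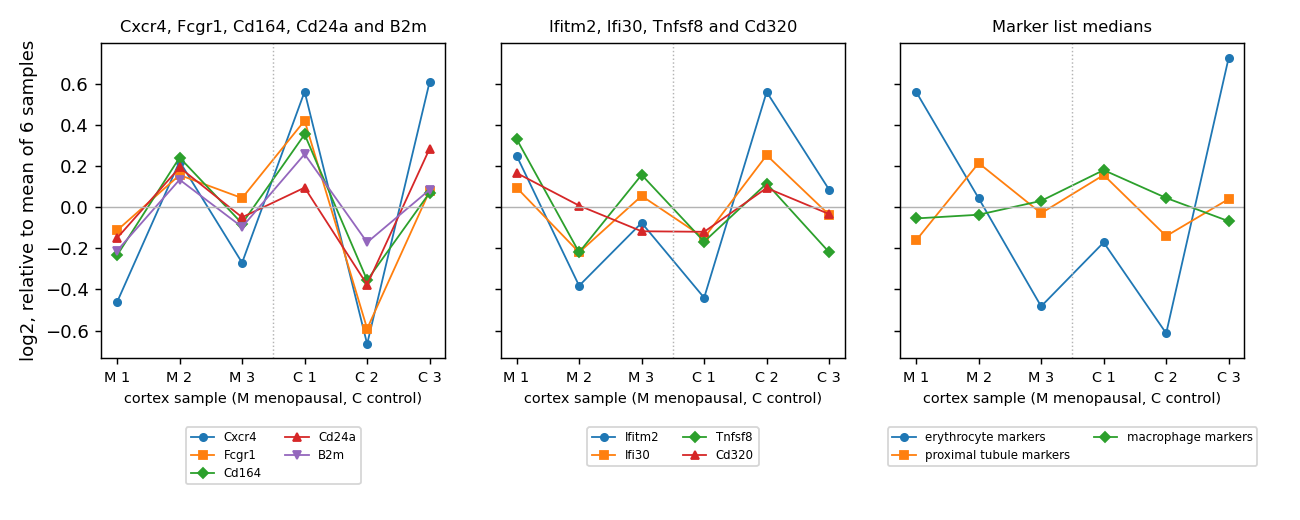
Log2 value relative to the mean of the 6 samples (y axis) for 5 members (left), 4 other members (middle) and the medians of 3 marker lists (right), with menopausal samples 1 to 3 (M) left of control samples 1 to 3 (C). The left panel dips at Menopausal 1 and Control 2, where Cxcr4 is at -0.46 and -0.67. Its 5 members were picked from the 7 with negative values there, so the dip follows from the choice. Irf1 and Il4ra, also of those 7, are not drawn. The middle members were likewise picked for positive values in these 2 samples. Lines join samples only to ease reading.

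Defining markers of other leukocytes were hardly covered. The array held 0 of 9 T cell, 0 of 5 NK cell, 0 of 6 dendritic cell and 0 of 3 pan-leukocyte markers, and the 1 B cell and 1 neutrophil marker on it were not kept. The content of these cells could not be compared between the groups. Cd247, the zeta chain of the T cell receptor, exceeded background in all 24 measurements and differed by -0.066 ± 0.089.

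Detection was counted for all members, kept or not. Over the 79 probes, 52.2% of menopausal and 49.5% of control measurements exceeded background, against 44.3% and 41.8% over all probes. Of the 79 probes, 31 were detected more often in menopausal samples, 25 more often in control samples and 23 equally often. In all 24 measurements 12 probes were above background, among them Cxcr4, Fcgr1, Irf1, B2m, H2-Eb1 and Tnfsf8. In none were 6, those of Cd177, Cd200r3, Cd47, Il10ra, C1qbp and the second Il6st probe. The 35 probes not kept were in no test. Of the 44 kept, 7 passed through the menopausal group alone and 0 through the control group alone, while 11.8% and 4.18% of all kept probes did.

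**Figure D4:**
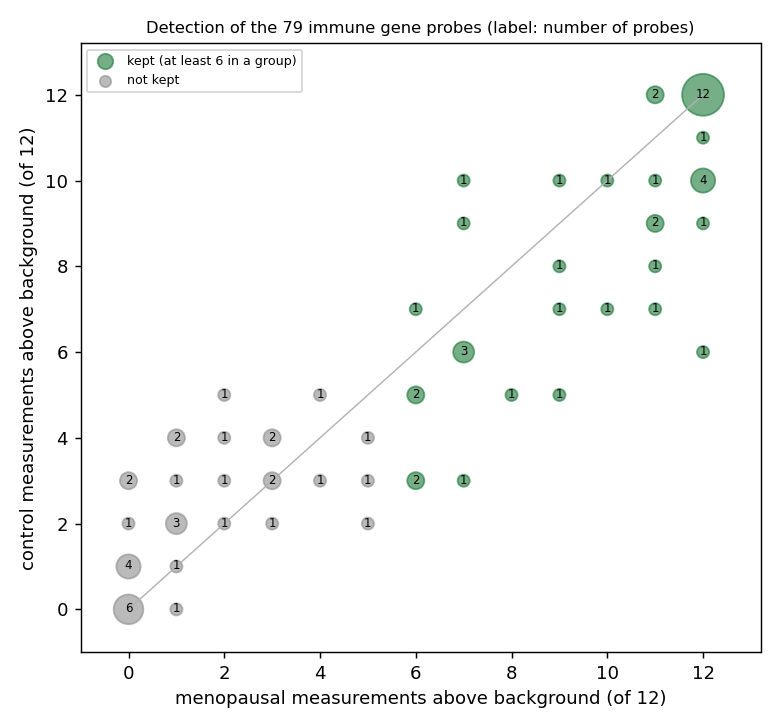
Number of the 12 menopausal measurements (x axis) and of the 12 control measurements (y axis) above background for the 79 immune gene probes. Circle area and the printed label give the number of probes at a point, green circles are kept and grey ones not, and the line marks equal detection. The largest circle holds the 12 probes above background in all measurements.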

How the data were processed

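Menopausal and control kidney cortex were compared from 12 arrays in 2 colours. The deposited intensity values are raw scanner readings of spot and local background, per the file headers. The value table holds log2 ratios normalized by the authors in an unstated way. By correlation with the scanner tables, 0 of its 12 columns was closest to its own array (r of 0.489 to 0.834 in size at the closest), so its direction and scaling stay unknown. Its column medians ran from -0.0719 to 0.101. The scan names hold 6 sample codes that match the 6 labelled samples one to one.

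Computed with limma 3.58.1 in R 4.3.3: spot medians were corrected by normexp (offset 50), normalized by print-tip loess, and copies of a probe averaged without marked spots. The shorter wavelength was taken as Alexa Fluor 546. Above background means exceeding it by over 2 background SDs. Least squares with a dye term gave 6 sample values, compared by limma's moderated test (intensity trend) with Benjamini-Hochberg adjustment over all 7683 probes. Moderated F tests used the 12 arrays, with 6 residual degrees of freedom that hold technical error. Print-tip loess was preferred because a slide gradient was known under global loess.

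Members, lists, tests and settings were chosen with earlier results of these data known. Named were, per role, the probes of smallest p in each direction, the 12 of largest range, other probes of those genes and all class I, class II and complement members; others are named as counts or list members. Symbols of 9085 probes were updated through the RefSeq table, and 106 stayed as annotated. Tested on simulated data for this comparison with 7683 probes, the fit called 68% of 50 probes changed by 0.5 and 98% of 50 changed by 1, with 11 false calls. Same-numbered samples did not deviate together (r of -0.355, -0.515 and -0.114). No array set same-numbered samples against each other, a layout that by itself lowers these r values. They therefore cannot decide whether the numbers pair the samples. Alternatives were other normalizations, background and filter settings, each sample left out, a replicate block and, chosen after seeing the data, the slide range. Array number limits precision.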

Additional observations from a re-analysis of the deposited data

How the results depend on the processing

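Of 160 alternative values for 16 named differences, under the 10 settings that could move a difference, 137 kept their direction and 23 reversed, and 7 of the differences reversed in none. The other 6 settings (both filters, both blocks, the prefix matches left out and the arrays of lower slide number) leave each difference as it was. Limma called 0 immune probes between the groups under each of the 16 settings. The cause of each reversal was not tested. With global loess Ifnar1 was at -0.0895 and Tnfrsf23 at 0.188, the median difference was 0.0192 and 1 probe had groups apart (13.1% of all probes), against 2 (12.0%). With median centring Cxcr4 was at 0.000633, Ifnar1 at -0.067, Irf1 at 0.00613, B2m at 0.077 and Tnfrsf23 at 0.172, and the median was 0.0534. Without background subtraction Tnfrsf23 was at 0.00272 and 4 probes had groups apart (8.85%). With scaling between arrays Cd151 was at -0.00808, Ifnar1 at -0.0176 and Tnfrsf23 at 0.00981, and 0 had groups apart (7.43%). Groups were apart at 6 probes without the filter (13.7%), 1 at 9 of 12 measurements (10.9%), 1 with a slide range block (12.0%) and 4 when only the 9 arrays of lower slide number were used (8.53%), the last 2 settings chosen after seeing the data. Of the 44 probes 19 were higher and 25 lower, against 25 and 19 with global loess and 28 and 16 with median centring.

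With 1 sample left out, the count of probes apart ran from 4 (without Menopausal 3, 21.5% of all probes) to 12 (without Control 3, 18.4%). The median difference ran from -0.0413 without Menopausal 1 to 0.0206 without Control 2. Probes called among control samples ran from 0 to 2 (Cxcr4 and Ifitm2, without Menopausal 2), and over all probes from 0 to 99 (1.29%, the same setting). Cd151 ran from -0.0542 to 0.0722, Il6st from -0.0093 to 0.284, Ifnar1 from -0.0321 to 0.0862, Cd2ap from -0.045 to 0.283, Cd2bp2 from -0.114 to 0.0223 and Tnfrsf23 from -0.0679 to 0.0532. The replicate block called 0 immune probes, and changed no call, with 264 of all probes at an unadjusted p under 0.05, against 375, and 0 immune ones, against 1. Signal over background kept 35 of the 79 probes out of the tests.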
